A study of Mus musculus with 13 samples.

Results

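The region around Rasgrf1 on mouse chromosome 9 was followed by reduced representation bisulfite sequencing (RRBS) in 13 libraries. RRBS sequences DNA cut by a restriction enzyme at CCGG, and reads the methylation of the cytosines in CpG pairs near the cuts. All CpGs between positions 89755001 and 89815000 (mm9) were taken, 113 in all, in 18 tiles of 1 kb. They were split into the upstream differentially methylated region (DMR), from 89760001 to 89785000, with 18 CpGs in 6 tiles, and the remainder of the window, with 95 CpGs in 12 tiles. A single library read between 53 and 82 of them, out of 1176884 to 2208267 CpGs that it read in the whole genome. A level is the percent of reads at the CpGs of a tile or region that were methylated.

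Rasgrf1 encodes a guanine nucleotide exchange factor that switches on Ras and is best known from the brain. In the mouse it is imprinted: the copy inherited from the father is expressed, and the DMR upstream of the gene is methylated on the father's copy and unmethylated on the mother's. The unmethylated maternal DMR binds CTCF and blocks an enhancer, and a tandem repeat beside the DMR is needed to set its methylation in the male germ line. Such a region gives an intermediate level in cells that keep the imprint. Each level here is a mean over many cells and over both parental copies, so a loss on the methylated copy, a gain on the other and a mixture of cells cannot be told apart.

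The groups were 2 libraries of female induced pluripotent stem cells (iPSC) marked XaXa, meaning 2 active X chromosomes, 4 of female iPSC marked XO, meaning a single X, and 3 of male iPSC. There was 1 library each of male cells positive and negative for SSEA1, a surface antigen that appears on mouse cells during reprogramming, and 2 libraries of male mouse embryonic fibroblasts (MEF), a cell type widely used as the start of reprogramming. Comparisons of XaXa and XO iPSC with MEF thus also compare female with male cells, and sex and cell type cannot be told apart in them. Feeder cells had been removed from the iPSC, per the labels' protocols. The labels name no strain, age, line or reprogramming factors. Whether libraries of a group come from separate lines is thus unknown, and a p-value speaks only of how these libraries vary, which may be technical variation. Library numbers are those of the labels.

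Total reads over CpGs ran from 4784488 in XO iPSC 9 to 143148634 in XaXa iPSC 8. The autosomal level, a mean over 20653 CpGs that had 10 or more reads everywhere, was 36.6% and 31.0% in the XaXa iPSC libraries. It lay between 50.04% and 58.5% in XO iPSC, between 51.8% and 56.4% in male iPSC, at 59.9% and 60.7% in the SSEA1 positive and negative cells, and at 61.2% and 62.6% in MEF. Read depth did not follow all labels. Depth on X, relative to male iPSC, was 1.27 in both XaXa libraries, but also 1.24, 1.13 and 1.26 in the libraries labelled XO iPSC 3, 5 and 9, against 1.01 in XO iPSC 6. The library labelled MEF 5 had an X depth of 1.22 and 0.0262% of its autosomal reads on Y, against 1.01 and 0.0690% in MEF 4. Over only the CpGs with 10 or more reads everywhere, X depth was 1.34 and 1.09 in XaXa iPSC 7 and 8. By that measure it was 1.32, 1.15, 0.961 and 1.25 in XO iPSC 3, 5, 6 and 9, and 1.01 and 1.30 in MEF 4 and 5. The 2 XaXa libraries thus agreed in X depth by the first measure only. Results are therefore also given with XO iPSC 6 alone and without MEF 5. Around the start of Pou5f1, the gene of the pluripotency factor Oct4, the level was 8.33% and 5.86% in XaXa iPSC and between 7.38% and 15.6% in male iPSC. It was 64.6% and 66.7% in the SSEA1 positive and negative cells and 61.5% and 65.2% in MEF. The XO iPSC libraries lay above the other iPSC with 66.1%, 36.1%, 37.3% and 24.1% in libraries 3, 5, 6 and 9. Within the 300 bases of the promoter alone, 18 of 30 and 14 of 81 reads were methylated in XO iPSC 3 and 5, but 0 of 168 and 0 of 13 in XO iPSC 6 and 9. There XaXa iPSC had 0 of 17 and 2 of 258, male iPSC 0 of 16, 3 of 30 and 0 of 59, the SSEA1 positive and negative cells 14 of 21 and 6 of 6, and MEF 4 of 6 and 11 of 21, so XO iPSC 6 and 9 lay with the other iPSC and XO iPSC 3 beside the fibroblasts. What part this has in the values below was not tested.

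The gene start lay downstream of the DMR. The RefSeq promoter of Rasgrf1 (GRCm38.p6, chr9:89909525-89909824, plus strand) was matched to the deposited CpGs, 3 of which fell on its CpGs, which put the gene start at 89804613 in mm9. The sequence is shown because the CpGs next to it form the unmethylated part of the window. Its 26 CpGs are in capitals.

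Rasgrf1 promoter: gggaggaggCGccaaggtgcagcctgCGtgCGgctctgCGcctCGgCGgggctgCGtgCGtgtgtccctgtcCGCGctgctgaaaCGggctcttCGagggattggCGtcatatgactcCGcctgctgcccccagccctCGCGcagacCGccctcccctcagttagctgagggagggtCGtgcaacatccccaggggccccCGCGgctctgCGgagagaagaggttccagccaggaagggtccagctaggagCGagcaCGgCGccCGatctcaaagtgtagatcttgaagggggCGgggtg

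The promoter holds 0 matches to CCGG, which reads the same on both strands, a site that 52.8% of 32851 RefSeq promoters of the same length hold, and RRBS read it little: its 3 CpGs with reads lie at -241, -224 and -220 bases from the start and had 17 reads each over 5 libraries, with 0, 1 and 1 of them methylated. The DMR was read from 36.1 to 23.7 kb before the gene start, and 9 of its 18 CpGs lie in a CCGG. Its sequence is not printed here.

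Along the window, the tiles at the gene start were close to unmethylated in every library. The tiles 13.5 kb before and 6.74 kb after the gene start were high in XO iPSC, at 87.9% ± 1.39 and 88.6% ± 10.6 (SD, n = 4), and in male iPSC, at 82.1% ± 5.73 and 91.2% ± 8.82 (SD, n = 3). In XaXa iPSC they were intermediate, at 54.9% ± 4.42 and 49.3% ± 10.6 (SD, n = 2). The SSEA1 positive library had 54.2% of 24 reads in the tile 6.74 kb after the gene start. SSEA1 negative had 81.25% there, and MEF 4 and 5 had 78.3% and 100%. In that tile the CpG at 89811422 was read in no iPSC library, and that at 89811661 only in iPSC. SSEA1 positive and MEF 4 each had 1 of 6 reads methylated at 89811422, so unlike CpGs are compared. At 89811350, 89811384 and 89811386, SSEA1 positive had 3, 4 and 5 of 6 reads methylated, and MEF 4 had all methylated. Reads in that tile were few in XO iPSC 3 and 9, with 8 and 4, and in male iPSC 2 and MEF 5, with 4 each. Of the 6 DMR tiles, 1 had enough reads in every library for a test, the tile 31.5 kb before the gene start, tiles being named by their first CpG. Its level ran from 28.9% to 71.1% over the 13 libraries. The neighbouring tile, 31.7 kb before the gene start, was read in 12 libraries and ran from 24.8% to 95% among the 10 with at least 5 reads. The tile 24.0 kb before the gene start, which has 7 CpGs, the most of the 6, was read in 13 libraries and ran from 15.8% to 92.6% among the 12 with at least 5 reads. The other 3 tiles were read by at most 7 libraries.

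**Figure D1:**
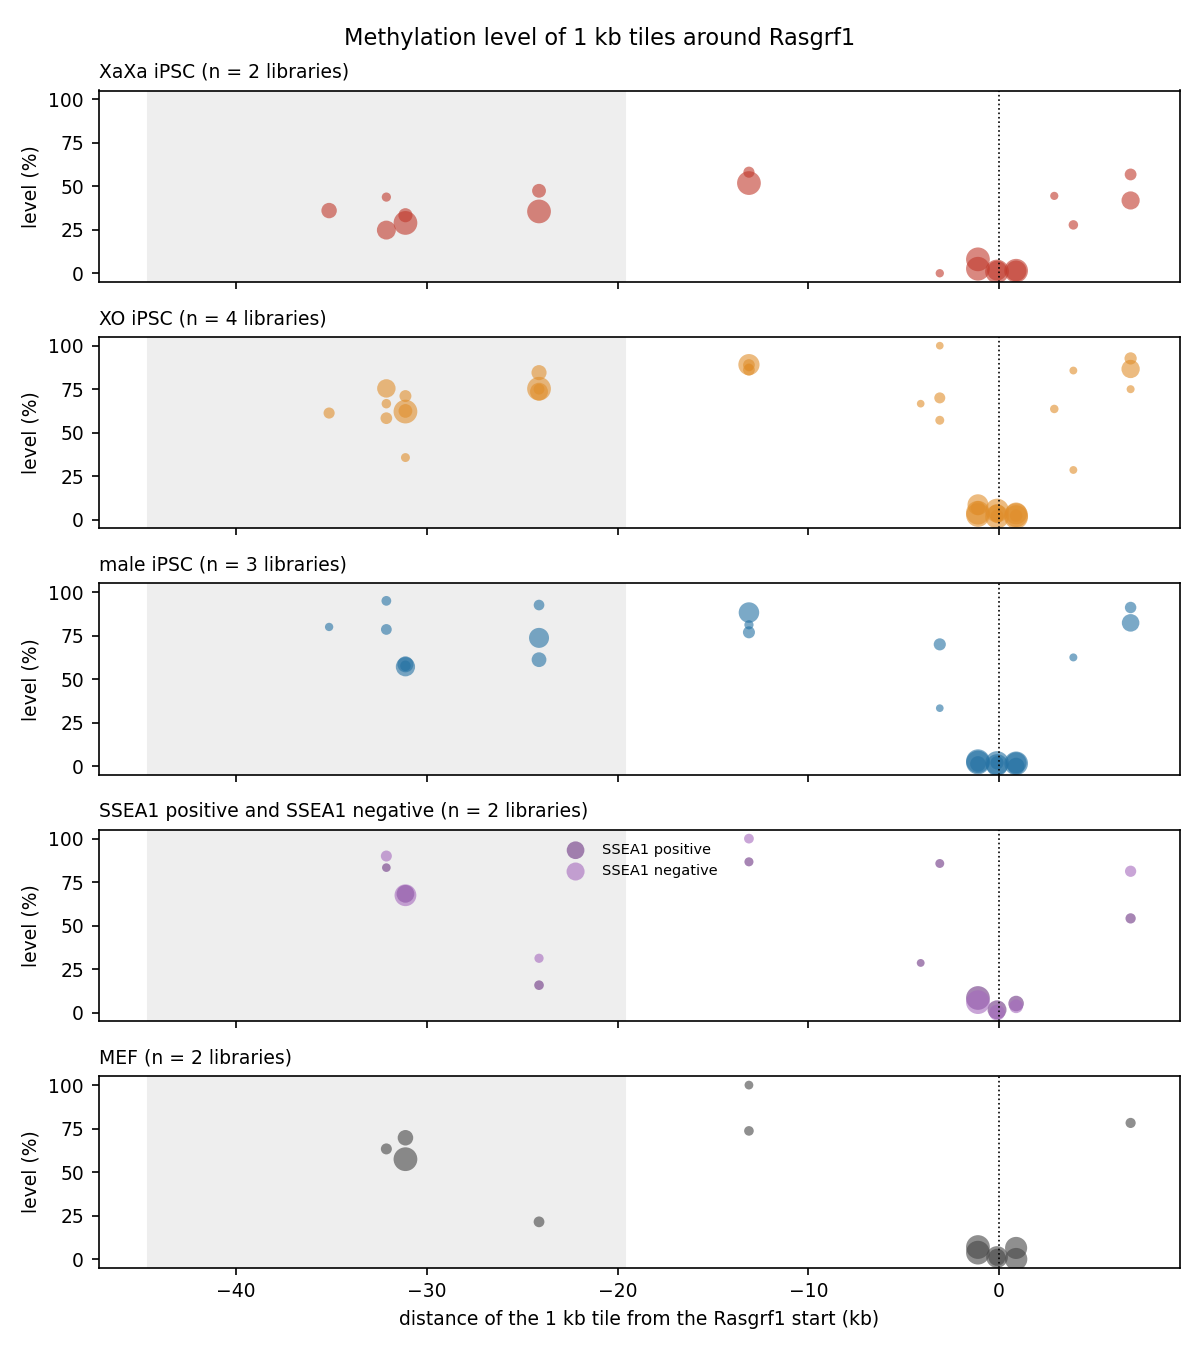
Methylation level (percent) of 1 kb tiles with at least 5 reads in a library, against the distance of the middle of the tile from the Rasgrf1 start in kb; each point is 1 library, its area grows with the reads, the grey band is the DMR and the dotted line the gene start. The tiles at the gene start lie near 0 in every group, while DMR tiles lie lower in the 2 XaXa iPSC libraries than in most other libraries.

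The DMR was less methylated in XaXa iPSC than in XO and male iPSC. Its level was 40.6% and 33.0% in XaXa iPSC 7 and 8, with 133 and 1073 reads. In XO iPSC it was 77.9%, 67.7%, 71.0% and 63.0% in libraries 3, 5, 6 and 9, with 131, 198, 739 and 46 reads. In male iPSC it was 63.0%, 78.7% and 67.9% in libraries 1, 2 and 4. Both XaXa libraries lay below every other iPSC library. The means were 36.8% ± 5.38 in XaXa iPSC (SD, n = 2), 69.9% ± 6.24 in XO iPSC (SD, n = 4) and 69.9% ± 8.03 in male iPSC (SD, n = 3).

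Between XaXa and XO iPSC the means differed by -33.1 percentage points, with p = 0.0667 in an exact two-sided permutation test, the smallest p this design allows. Between XaXa and male iPSC they differed by -33.1 points, with p = 0.1, also the smallest possible in the exact permutation test. Adjusted over the 6 comparisons of groups by the Benjamini-Hochberg method, both exact permutation tests gave p = 0.3, and a design of this size cannot reach 0.05. With XO iPSC 6 as the only XO library the difference was -34.2 points, so it was as large without the libraries whose X depth went against the label.

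**Figure D2:**
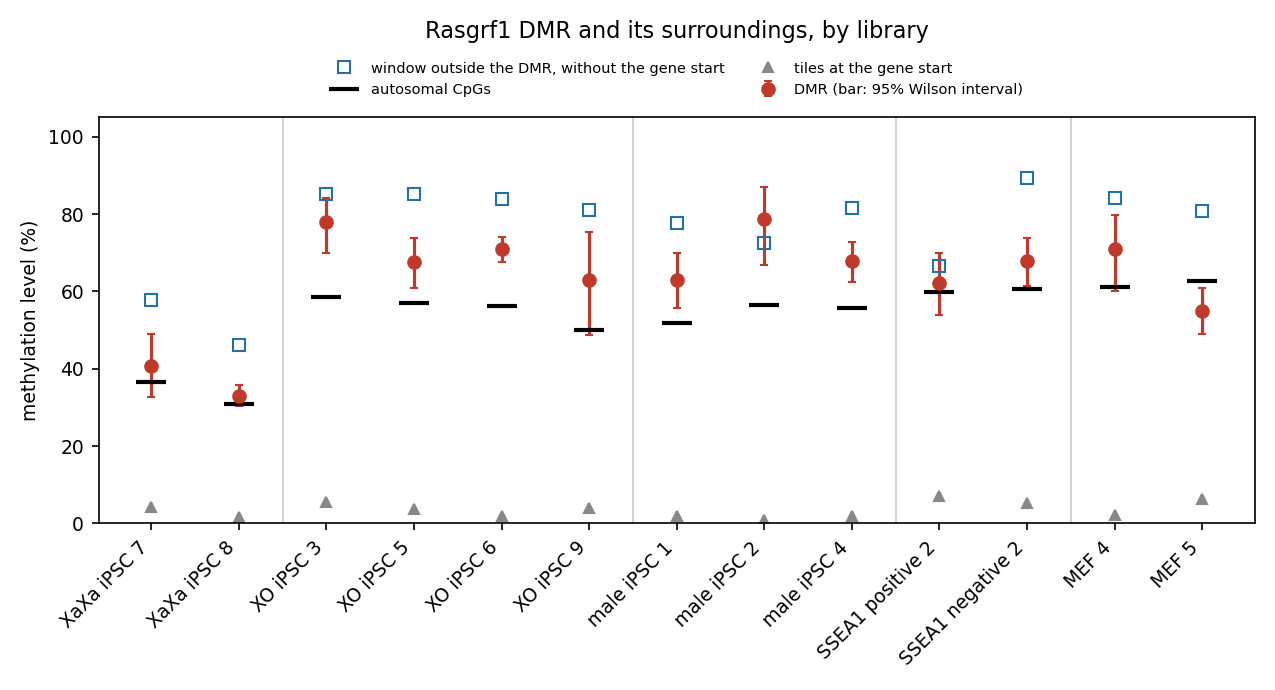
Methylation level (percent) of the DMR in each library with its 95% Wilson interval, which covers counting error only, beside the window outside the DMR without the gene start, the autosomal CpGs and the tiles at the gene start. The XaXa iPSC libraries lie at 40.6% and 33.0% for the DMR, and their autosomal level and flank are lower than in the other libraries as well.

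A model over 50193 tiles of 25 kb, 1 of which was the DMR, gave the same direction. A quasi-binomial fit of methylated and unmethylated reads, with limma's moderated dispersion and Benjamini-Hochberg adjustment over all tiles, put the DMR at 36.2% in XaXa iPSC and 70.5% in XO iPSC, a difference of -34.3 points with an adjusted p of 6.96e-06. A tile was called where it differed by 10 points or more and its adjusted p was under 0.05, and 84.6% of all tiles were called lower in XaXa than in XO iPSC. The DMR was also called lower than in male iPSC, by -32.6 points with an adjusted p of 3.68e-05 in this limma-based fit, where 80.3% of tiles were called lower. Being called lower is thus what most tiles of the genome share. The median tile differed by -26.6 points between XaXa and XO iPSC and by -26.1 points between XaXa and male iPSC, and 13.6% and 22.5% of tiles differed by as much as the DMR or more in that direction.

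The lower level was found at 2 DMR CpGs that every library read at least 7 times. They lie 38 bases apart, at 89773114 and 89773152, and had equal read counts in each of the 13 libraries, so their reads are not separate observations. Their tile had 33.3% and 28.9% in XaXa iPSC 7 and 8, against 71.1%, 62.5%, 62.1% and 35.7% in XO iPSC 3, 5, 6 and 9 and 58.5%, 57.7% and 57.1% in male iPSC 1, 2 and 4. XO iPSC 9, with 14 reads in the tile, lay near the XaXa libraries and apart from the other XO libraries. At 89773114 alone it had 14.3% of 7 reads, below XaXa iPSC 7 and 8 at 36.7% and 22.0%. At 89773152 the XaXa libraries had 30% and 35.8%, below the lowest XO and male values of 57.1%. In the fit over 101787 tiles of 1 kb the tile was called lower in XaXa than in XO iPSC by -30.4 points (adjusted p = 0.00157, limma's moderated dispersion), where 73.0% of tiles were called lower. It was called lower than in male iPSC by -27.0 points (adjusted p = 0.00593, same fit), where 66.2% were called lower. Without XaXa iPSC 8, the deepest library, the differences were -27.6 and -24.4 points and the adjusted p-values 0.0698 and 0.117 in the same fit, so the tile was not called. That leaves 1 XaXa library, which is assumed to vary like those of the other groups.

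The DMR tile 24.0 kb before the gene start had 47.4% and 35.5% in XaXa iPSC, against 84.5%, 73.6%, 75.3% and 75% in XO iPSC and 61.2%, 92.6% and 73.7% in male iPSC. It was chosen after its values were seen, and no model value was fitted for it because MEF 4 had only 3 reads there. Within this tile the CpG at 89780724, which lies in a CCGG, had 56.2% and 49.2% in XaXa iPSC, against 83.3%, 82.6%, 81.9% and 87.5% in XO iPSC and 85.7%, 100% and 92.3% in male iPSC. The CpG at 89780753 had 66.7% and 42.4% in XaXa iPSC, and its ranges overlapped with those of XO iPSC (62.5% to 80.3%) and male iPSC (50% to 100%). Male iPSC 1, 2 and 4 had few reads, 7, 3 and 26 at 89780724 and 6, 2 and 18 at 89780753.

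Measured against the autosomal level of the same library, the difference was smaller. The DMR lay 3.03 ± 1.43 points above the autosomal level in XaXa iPSC (SD, n = 2), 14.5 ± 3.67 in XO iPSC (SD, n = 4) and 15.2 ± 6.10 in male iPSC (SD, n = 3). XaXa iPSC had 4.04 and 2.02 points, below the lowest XO value of 10.8 and the lowest male value of 11.2. How many tiles of the genome separate the groups in this way was not counted. By the raw difference of the 25 kb fit, 13.6% and 22.5% of tiles fell by as much as the DMR or more. In the distance from the autosomal level, XaXa and XO iPSC differed by -11.4 points on average (exact permutation p = 0.0667, adjusted 0.15). XaXa and male iPSC differed by -12.2 points (exact permutation p = 0.1, adjusted 0.15). Each exact permutation p was the smallest possible. With XO iPSC 6 as the only XO library, XaXa and XO iPSC differed by -11.7 points. Over the 4 DMR CpGs read in each of the 13 libraries, the differences were -5.04 points (exact permutation p = 0.133) and -1.52 points (exact permutation p = 0.6). With the tile 31.5 kb before the gene start alone they were -5.06 points (exact permutation p = 0.667) and -5.81 points (exact permutation p = 0.1). The autosomal CpGs averaged 33.8% in XaXa, 55.4% in XO and 54.6% in male iPSC. They thus differed less than the median 25 kb tile, at -26.6 and -26.1 points. With the mean of 25 kb tiles as the autosomal level, the DMR lay 1.04, 11.3 and 11.2 points above it in XaXa, XO and male iPSC. The difference of XaXa from XO and male iPSC was negative under every alternative run. Its size and p depended on which DMR CpGs were counted.

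The flank on the gene side of the DMR gave a difference of similar size. No CpG between the start of the window and the DMR was read. Outside the DMR and without the 3 tiles at the gene start, the level was 57.9% and 46.2% in XaXa iPSC, between 81.0% and 85.2% in XO iPSC and between 72.4% and 81.6% in male iPSC. XaXa iPSC did not overlap with XO or male iPSC, while XO and male iPSC overlapped. The means differed by -31.7 points between XaXa and XO iPSC (exact permutation p = 0.0667) and by -25.1 points between XaXa and male iPSC (exact permutation p = 0.1). Of all 25 kb tiles, 84.6% and 80.3% were called lower in these 2 comparisons. Most of these reads came from the CpG at 89791097 between the DMR and the gene and from the tile 6.74 kb downstream of the gene start. The CpG at 89791097 had 55.6% and 49.4% in XaXa iPSC, against 87.1%, 92.6%, 87.2% and 87.5% in XO iPSC and 75.7%, 76.9% and 87.6% in male iPSC. Set against this flank, the DMR lay at -15.3 ± 2.85 points in XaXa iPSC (SD, n = 2), -13.9 ± 4.94 in XO iPSC (SD, n = 4) and -7.36 ± 11.8 in male iPSC (SD, n = 3). XaXa and XO iPSC differed in this distance by -1.37 points, with p = 0.867 in the exact permutation test.

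The gene start was close to unmethylated. In the 3 tiles at the gene start, which hold 26, 28 and 20 CpGs, the pooled level was 4.23% and 1.57% in XaXa iPSC, 5.502%, 3.78%, 1.83% and 3.87% in XO iPSC and 2.003%, 0.897% and 1.94% in male iPSC. It was 7.19% and 5.19% in the SSEA1 positive and negative cells and 2.25% and 6.18% in MEF. Male iPSC lay below both MEF libraries, by -2.60 points on average (exact permutation p = 0.1, the smallest possible), the other pairs of replicated groups overlapped, and SSEA1 positive was the highest library. No library exceeded 8.61% in any of the 3 tiles, so a call, which needs 10 points, could not be made here. Among all 1 kb tiles, 0.0334% were called in either direction between XO and male iPSC, 25.1% between XO iPSC and MEF and 26.0% between male iPSC and MEF. The fitted differences at the 3 tiles lay between -3.22 and 3.08 points. The most evenly read CpG of the window, at 89804163 in the gene-start tile, had from 0% to 8.11% in the 13 libraries, with at least 16 reads in each. Because these tiles hold most reads outside the DMR, the pooled level of everything outside it was only 8.55% ± 3.99 in XaXa iPSC (SD, n = 2), 12.4% ± 1.98 in XO iPSC (SD, n = 4), 10.6% ± 1.30 in male iPSC (SD, n = 3) and 7.30% ± 0.447 in MEF (SD, n = 2), and says little of either stretch.

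XO and male iPSC did not differ detectably at the DMR. Their means differed by 0.05 points (exact permutation p = 0.971, where 0.0286 was the smallest possible), and the fitted tile by 1.78 points (adjusted p = 0.9998 with limma's moderated dispersion). Few tiles of the genome were called in this comparison, 0.0558% in either direction. With XO iPSC 6 alone the means differed by 1.19 points. XO iPSC ran from 63.0% to 77.9% and male iPSC from 63.0% to 78.7%. At the flank the means were 83.8% ± 1.99 in XO iPSC (SD, n = 4) and 77.2% ± 4.598 in male iPSC (SD, n = 3), a difference of 6.60 points (exact permutation p = 0.0857).

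Male iPSC and MEF overlapped in their DMR level. Male iPSC averaged 69.9% ± 8.03 (SD, n = 3) and MEF 62.9% ± 11.3 (SD, n = 2), from 70.9% in MEF 4 and 54.9% in MEF 5. The difference of 6.95 points gave p = 0.5 in the exact permutation test and an adjusted p of 0.443 in the 25 kb fit with limma's moderated dispersion, where it was 7.26 points and 7.26% of tiles were called higher. Without MEF 5, whose X and Y depth went against the label, the difference was -1.03 points. That leaves MEF 4 alone, which had 76 of its 79 DMR reads in the tile 31.5 kb before the gene start. Male iPSC 4, for instance, had 126 of 305 there, so unlike sets of CpGs are compared. The SSEA1 positive library had 62.2% (95% Wilson interval 53.8 to 70.0) and the SSEA1 negative library 67.9% (61.4 to 73.8), both between the 2 MEF libraries, with no replicates and no test. Male iPSC did lie higher above the autosomal level, at 11.2, 22.2 and 12.3 points in libraries 1, 2 and 4, against 9.68 in MEF 4 and -7.69 in MEF 5. This difference of 14.2 points (exact permutation p = 0.1, the smallest possible) was 5.55 points without MEF 5 and 1.496 points with the tile 31.5 kb before the gene start alone. How many tiles of the genome separate male iPSC from MEF in this way was not counted. In the 25 kb fit, 82.0% of tiles had a raw difference at or below that of the DMR.

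**Figure D3:**
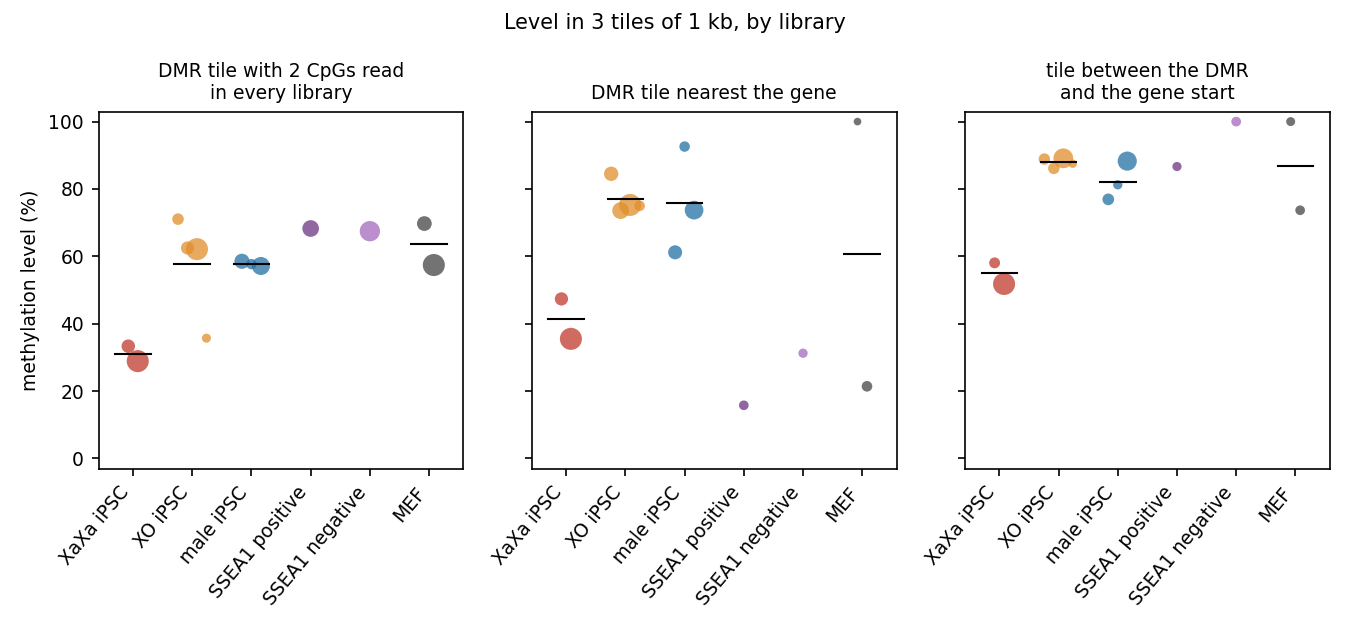
Methylation level (percent) of 3 tiles of 1 kb, the DMR tiles 31.5 and 24.0 kb before the gene start and the tile 13.5 kb before it, outside the DMR; each point is 1 library, its area grows with the reads, and bars are means of groups with more than 1 library. In the tile 24.0 kb before the gene start the SSEA1 libraries and MEF 5 lie between 15.8% and 31.2%, while MEF 4 lies at 100% on 3 reads.

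The fibroblast and SSEA1 libraries did not read the same CpGs as the iPSC libraries. Of the 18 DMR CpGs, 4 were read in iPSC only, 4 in MEF or SSEA1 libraries only, and 4 in each of the 13 libraries. Over those last 4, the DMR level was 42.9% and 39.3% in XaXa iPSC, 73.7%, 67.4%, 70.8% and 59.3% in XO iPSC and 63.2%, 61.3% and 65.9% in male iPSC. It was 64.6% and 65.3% in the SSEA1 positive and negative cells and 70.5% and 56.3% in MEF. Male iPSC and MEF then differed by 0.02 points (exact permutation p = 1). These levels still weigh each CpG by its reads. In MEF 4 and 5, 76 of 78 and 202 of 213 reads lay in the tile 31.5 kb before the gene start, against 126 of 170 in male iPSC 4. At 89773114, 89773152, 89780724 and 89780753 male iPSC averaged 52.4%, 63.1%, 92.7% and 79.6%. MEF averaged 63.2%, 63.9%, 66.7% and 70%, with 1 read in MEF 4 at 89780724 and at 89780753. The CpGs thus differed in both directions.

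Within the DMR the 2 main tiles ran apart in both SSEA1 libraries and MEF 5, and in the opposite direction in iPSC. In each of the 9 iPSC libraries the tile 24.0 kb before the gene start was the higher. The gap was widest in XO iPSC 9 (35.7% and 75%) and male iPSC 2 (57.7% and 92.6%), and narrowest in male iPSC 1 (58.5% and 61.2%). In the tile 31.5 kb before the gene start the level was 68.3% and 67.5% in the SSEA1 positive and negative cells and 69.7% and 57.4% in MEF 4 and 5. In the tile 24.0 kb before it the level was 15.8% of 19 reads and 31.2% of 16 reads in the SSEA1 positive and negative cells, and 21.4% of 28 reads in MEF 5. MEF 4 went the other way, with 100% of 3 reads. At the CpG at 89780724, which all libraries read, the 9 iPSC libraries had from 49.2% to 100%. SSEA1 positive had 20% of 5 reads, SSEA1 negative 0% of 4 and MEF 5 33.3% of 6, below that range, but MEF 4 had 100% of 1 read, inside it. These are few reads, and a read spanning several CpGs of the tile counts at each, so still fewer may be separate. The tile was chosen after its values were seen, so no test is given.

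XaXa iPSC also lay below MEF. The means of 36.8% ± 5.38 in XaXa iPSC and 62.9% ± 11.3 in MEF (SD, n = 2 each) differed by -26.1 points, with p = 0.333 in the exact permutation test, the smallest that 2 against 2 allow. Without MEF 5 the difference was -34.1 points, against MEF 4 alone, with 76 of its 79 DMR reads in 1 tile. The 25 kb fit with limma's moderated dispersion called the DMR lower by -25.3 points (adjusted p = 0.00194), where 82.5% of tiles were called lower and the median tile differed by -30.5 points. Of all tiles, 62.9% differed by as much as the DMR or more. Without XaXa iPSC 8 the difference was -20.9 points and the adjusted p of this fit 0.0544, so the DMR was not called, again with 1 XaXa library assumed to vary like the others. The tile 31.5 kb before the gene start was called lower by -32.1 points in the 1 kb fit (adjusted p = 0.0022, limma's moderated dispersion), where 67.6% of tiles were called lower, and by -29.6 points without XaXa iPSC 8, where it was not called (adjusted p = 0.0531 in the same fit).

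XO iPSC and MEF were not distinguished at the DMR. The difference of 7.001 points gave p = 0.4 in the exact permutation test, and the fitted 9.05 points an adjusted p of 0.288 with limma's moderated dispersion, where 7.52% of tiles were called higher. Without MEF 5 the difference was -0.98 points, against MEF 4 alone, with 76 of its 79 DMR reads in 1 tile. With XO iPSC 6 alone it was 8.14 points. Relative to the autosomal level, XO iPSC lay 13.5 points higher than MEF, without overlap (exact permutation p = 0.0667, the smallest possible). With the tile 31.5 kb before the gene start alone that difference was 0.74 points, and without MEF 5 it was 4.79 points. How many tiles of the genome separate XO iPSC from MEF in this way was not counted. In the 25 kb fit, 85.7% of tiles had a raw difference at or below that of the DMR.

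**Figure D4:**
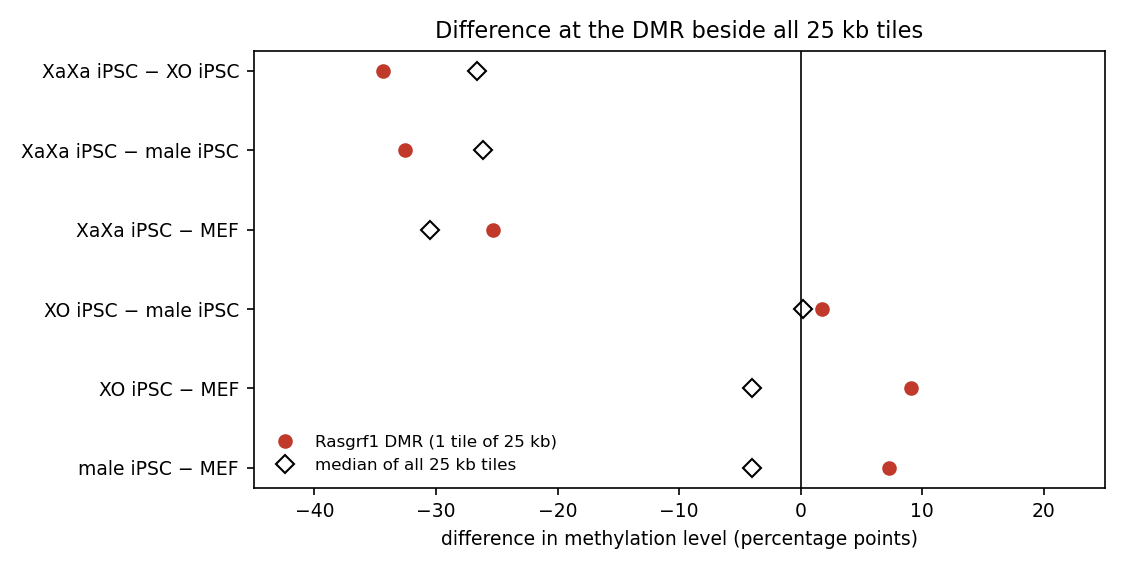
Difference in methylation level (percentage points) of the DMR, fitted as 1 tile of 25 kb, beside the median difference of all 50193 tiles, for the 6 comparisons of groups. In the 3 comparisons of XaXa iPSC both lie between -25 and -35 points; in the comparisons of XO and male iPSC with MEF the DMR lies at 9.05 and 7.26 points and the median at -4.05 and -3.98.

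The 2 other best known paternally methylated regions of the mouse were read thinly. They are the H19 imprinting control region, which governs H19 and Igf2, and the IG-DMR between Dlk1 and Meg3, both placed from general knowledge. The H19 region (chr7:149766001-149769000, mm9) had 30.0% and 16.5% in XaXa iPSC, 55.0%, 44.4%, 54.5% and 25% in XO iPSC and 28.1%, 27.8% and 57.6% in male iPSC. It had 60.0% and 56.2% in the SSEA1 positive and negative cells and 88.9% and 59.5% in MEF. As at the Rasgrf1 DMR, XaXa iPSC 8 was the lowest library, but the ranges of XaXa, XO and male iPSC overlapped. The overlap with XO iPSC came from library 9 alone, with 8 reads. That with male iPSC came from libraries 1 and 2, with 32 and 18 reads. XaXa iPSC 7 and 8 had 40 and 278 reads.

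The IG-DMR (chr12:110766001-110771000, mm9) had 29.4% and 26.9% in XaXa iPSC. XO iPSC ranged from 21.0% to 94.1% and male iPSC from 32.7% to 100%. The SSEA1 positive and negative cells had 28.6% and 69.2% on only 7 and 13 reads, and MEF 4 and 5 had 75% and 50% on 4 and 14. Male iPSC 1 and 2 were at 100% of 36 and 29 reads there, while their Rasgrf1 DMR levels were 63.0% and 78.7%, so these libraries did not show the same level at both regions.

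Several parts of the genome followed the DMR closely over the libraries. Of 47517 autosomal tiles of 25 kb, the most similar by Pearson's r over the 13 libraries was the tile at chr10:39635001-39660000, with r = 0.986, followed by chr5:112535001-112560000 with r = 0.978. Their levels were 14.6% and 44.5% on average in XaXa iPSC, 31.8% and 73.5% in XO iPSC, and 31.7% and 74.4% in male iPSC. The median tile had r = 0.689, and all tiles share the libraries and their overall level, so these values are a description.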

How the data were processed

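Per the file headers, each deposited table gives for every CpG a count of total reads and one of methylated reads, not normalized, beside the methylated fraction deposited by the authors, their quotient, which was not used. BSMAP and the build mm9 are named in the submitters' processing notes; the sources used here do not say which version, trimming or filters applied. RRBS reads begin at cut sites, so PCR copies cannot be removed, and a read spanning several CpGs counts at each. Intervals (Wilson, 95%) cover counting error only. Deposited starts were read as counted from 0; positions are printed from 1.

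Reads were summed over the CpGs of a tile or region in each library. Group means, libraries weighing equally, were compared with exact two-sided permutation tests, adjusted over 6 comparisons. The quasi-binomial model covered 25 kb tiles with 20 reads, and 1 kb tiles with 10, in each of 11 libraries of the replicated groups. As first planned it let deep libraries dominate and, tested on simulated data for XaXa against XO iPSC over 50193 tiles of 25 kb, called 4180 unchanged tiles. Reads were therefore weighted for extra-binomial correlation (0.0167 for 25 kb, 0.0231 for 1 kb tiles). The weighted model then called 3 unchanged tiles, and found 22 of 100 tiles changed by 20 points and 98 of 100 changed by 40. For XaXa iPSC against MEF over the same number of tiles it called 9 unchanged tiles and found 10 and 90, and over 101787 tiles of 1 kb it called 2 and found 2 and 63. Real libraries also differ in their genome-wide level, which was not simulated. By plan, named 1 kb tiles were those tested, and named CpGs the 5 with the highest minimum of reads inside the DMR and outside it. In the DMR only 4 had reads in every library. Beyond the plan, untested tiles 31.7, 24.0 and 13.5 kb before and 6.74 kb after the gene start are described. The region, lists and comparators were chosen with earlier results of these data known. Nanog's promoter, planned as a marker, could not be placed and is not reported. Alternatives left out each replicate, set minimums of 5 or 10 reads per CpG, capped CpGs at 50 reads, took unweighted means or CpGs read in all libraries, used other models and kept XO iPSC 6 alone. Tools were Python 3.11.15, numpy 2.4.6, pandas 2.3.3, R 4.3.3 and limma 3.58.1.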

Additional observations from a re-analysis of the deposited data

Results flagged for a closer look

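In the XO iPSC group of 4 libraries, 18 values were checked for a library lying far from the others (Dixon's ratio above 0.829), and 4 did. The chance rate of about 1 in 20 holds for separate values with a normal spread. Values here share reads and some lie at 0%, so the count of flags cannot be set against that rate. XO iPSC 3 had 84.5% in the DMR tile 24.0 kb before the gene start, the next library 75.3%. XO iPSC 9 had 14.3% on 7 reads at the CpG at 89773114, the next library 60.2%. XO iPSC 5 had 92.6% at the CpG at 89791097, the next library 87.5%. XO iPSC 5 had 9.09% at the CpG at 89803933, where the other 3 libraries had 0%, so any methylated read in it would give a flag.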

How the results depend on the processing

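No paired analysis was possible because the groups compared share at most 1 replicate number. The lower DMR level in XaXa iPSC than in XO iPSC, male iPSC and MEF kept its direction under every alternative run for the DMR level and for the 25 kb fit. Of these calls, 1 was lost, that against MEF without XaXa iPSC 8, with -20.9 points and 1 XaXa library assumed to vary like the others; leaving out 1 library in turn gave -34.7 to -18.7 points there. The 5 kb tiles gave no DMR value, since none had 20 reads in each library. Single tiles, the gene-start tiles alone or left out, the flank or a ratio in place of the autosomal difference, and reads not weighted were chosen after seeing the data. Differences between the other groups, smaller than those of XaXa iPSC, changed sign. For the DMR level of XO minus male iPSC, leaving out 1 library gave -3.37 to 4.47 points (25 kb fit, -1.47 to 4.96), unweighted CpG means -5.68 and the cap of 50 reads -0.23. For XO iPSC minus MEF, leaving out 1 library gave -0.98 to 15.0 points (fit, -0.34 to 15.6) and the tile 31.5 kb before the gene start alone -5.73. For male iPSC minus MEF these were -1.03 to 14.9 (fit, -2.12 to 13.8) and -5.79, and CpGs with 10 or more reads gave -1.45.

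Relative to the autosomal level, XaXa iPSC minus MEF gave -4.32 points with that tile alone and -6.65 to 10.7 leaving out 1 library. XO minus male iPSC gave 0.12 and 7.97 with minimums of 5 and 10 reads per CpG, 3.52 with CpGs read in all libraries, 0.44 with the tile 24.0 kb before the gene start, 0.16 with the autosomal level over 25 kb tiles, and -2.79 to 2.74 leaving out 1 library. Outside the DMR, 10 or more reads per CpG gave 0.18 for XaXa minus XO iPSC and -4.56 for XO minus male iPSC, which was -0.68 with XO iPSC 6 alone. XaXa iPSC minus MEF gave -0.17 with unweighted CpG means, -0.54 with CpGs read in all libraries and -1.57 to 4.07 leaving out 1 library, and XaXa minus male iPSC -4.90 to 0.74. With the gene-start tiles alone, the differences were 1.29 for XaXa minus male iPSC, -1.32 for XaXa iPSC minus MEF, -0.47 for XO iPSC minus MEF and -2.60 for male iPSC minus MEF. Without those tiles, XaXa and male iPSC minus MEF were -30.4 and -5.28 points. In the 1 kb fit, the tile 31.5 kb before the gene start gave 1.31 points for XO iPSC minus MEF with reads not weighted, and leaving out 1 library -8.57 to 3.74, and -12.0 to 0.35 for male iPSC minus MEF.

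The doubled minimum of reads left fewer 25 kb tiles to test (32244) and called 25699, 23991 and 26151 of them for XaXa iPSC against XO iPSC, male iPSC and MEF. Of 1 kb tiles it left 45139 and called 26969, 24170 and 27906, and 12540 and 13234 for XO and male iPSC against MEF. Leaving out 1 library called 30271 to 76181 and 23981 to 68767 of the 1 kb tiles for XaXa against XO and male iPSC, the fewest without XaXa iPSC 8. For XO and male iPSC against MEF it called 16087 to 26486 and 17554 to 28133, the fewest without MEF 5. For XO against male iPSC, 28 tiles of 25 kb were called: 116 with reads not weighted, 44 with CpGs read in each of the 11 libraries, 3 with limma on log2 ratios, 3 with the pair of groups alone, and 2 to 107 leaving out 1 library. Of 1 kb tiles, 34 were called: 476 with reads not weighted, 8 with the doubled minimum, 18 with CpGs read in each library, 1 with the pair of groups alone, 138 with XO iPSC 6 alone, and 1 to 306 leaving out 1 library. Limma on log2 ratios called 0 of them, with 5884 at an unadjusted p under 0.05. Why these counts moved was not tested. Depth limits the DMR most in XO iPSC 9, with 46 reads, and in MEF 4, with 3 reads in the tile nearest the gene.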
